A study of Bos taurus with 6 samples.

Results

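The small GTPases of the RAB, ARF, ARL and SAR1 families were examined in day 7 bovine blastocysts on 6 Affymetrix GeneChip Bovine Genome arrays. Members were all genes whose probe sets carry exactly 1 symbol, and whose symbol is RAB, ARF or ARL followed by a number, SAR1A or SAR1B. This gave 50 genes of the 9155 named on the array, on 63 of the 24016 probe sets tested: 39 RAB, 5 ARF, 4 ARL and 2 SAR1 genes. For a gene with several probe sets, the one with the highest mean over all arrays was used. The 3 probe sets that share a RAB symbol with another gene, RAB9A with TCEANC and RAB33A with AIFM1, were left out. The ARS-UCD2.0 RefSeq gene table holds the identifiers of all 50 genes, under the same symbols and as protein coding.

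RAB and ARF proteins are molecular switches that sit on membranes when bound to GTP and leave them after hydrolysis. Exchange factors load them with GTP and GTPase-activating proteins turn them off. RAB proteins, which carry lipid anchors, also cycle through the cytosol bound to a GDP dissociation inhibitor. Each family member marks its own compartment: SAR1 starts coat assembly at the endoplasmic reticulum, RAB1 and RAB2 act between the endoplasmic reticulum and the Golgi, RAB5 on early endosomes, RAB4 and RAB11 in recycling, RAB7 on late endosomes. In the blastocyst, the trophectoderm is a polarized epithelium, and RAB11 and RAB8 are known for delivering cargo to the apical surface of such epithelia.

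In the superovulated group, with 3 arrays, the blastocysts stayed until day 7 in the tract of Simmental heifers that had been superovulated and inseminated. In the synchronized group, also 3 arrays, the embryos came from superovulated and inseminated Simmental heifers as well, but were flushed on day 2 at the 2-cell stage and moved endoscopically into recipients that had only been synchronized, where they stayed until day 7. The comparison asks how the stimulated tract bears on blastocyst transcripts, and the groups differ in flushing and transfer too. The number of blastocysts per array, and whether arrays of a group hold separate animals, are not given in the sources used here, so p-values reflect array-to-array spread alone, and part of that spread may be technical. Whole blastocysts are bulk samples, in which fewer cells of a type and less RNA per cell cannot be told apart.

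Signals are on the log2 scale. A difference is the superovulated mean less the synchronized mean of these log2 signals, and mean ± SD is over the 3 arrays of a group (n = 3). Adjusted p-values come from limma over all 24016 probe sets. Genes were called below an adjusted p of 0.05, and called at a looser threshold below 0.3 where the difference was also at least 1. Array medians lay between 2.75 and 2.8, so a probe set is called bright here if its mean over the 6 arrays was above 4, and values around 3 or lower are treated as background. Above 4 lay 1457, 1578 and 1894 probe sets on the superovulated arrays, in the order of their numbers, and 973, 1850 and 1184 on the synchronized arrays. Over all 1406 bright probe sets the median difference was 0.59, against -0.02 over all probe sets. The spiked hybridization controls read 12.67 ± 0.02 on the superovulated and 13.20 ± 0.32 on the synchronized arrays. Among blastocyst markers, the trophectoderm keratin gene KRT18 read 7.74 to 8.11 on the superovulated and 3.55 to 4.90 on the synchronized arrays, whereas KRT8 stayed below 2.5 on all arrays. The mean of the 12 measured of 19 trophectoderm and epithelium markers was 4.15 to 4.27 on the superovulated and 3.20 to 3.49 on the synchronized arrays. Their median difference was 0.25, 5 of the 12 differed by less than 0.3, and 3 were lower. Of all 24016 probe sets, 20984 differed by less than 0.3 and 17256 were lower. Of the 12 markers 5 (41.7%) were higher without overlap, against 5.42% of all probe sets. KRT18 (3.89), DAB2 (2.21) and EZR (2.18) differed most. DAB2 also counts as a primitive endoderm gene. The 3 measured of 10 inner cell mass markers averaged 3.53 to 3.79 against 2.81 to 3.05: KLF4 differed by 1.32 and POU5F1 by 0.81, both without overlap, and SOX2 stayed below 2.5. The mean of the 8 measured of 12 primitive endoderm markers was 3.91 to 4.14 against 3.24 to 3.63, where GATA6 differed by 2.12 and FN1 by 2.23, both past the looser threshold only. The median difference of these 8 was 0.02, 6 of the 8 differed by less than 0.3, and 4 were lower. The part that array brightness, the hybridization controls or the amount of each of these cell types had in the results below was not tested.

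Of the 50 genes, RAB18 was called higher in the superovulated group and none was called lower. That is 2% of the genes, where 0.695% of all probe sets were called higher and 0.0208% lower. Shares of the genes here and below use 1 probe set per gene, that with the highest mean. The reference counts every probe set, so the choice can raise the shares of the genes above it. RAB11A and RAB4A joined it at the looser threshold, which makes 3 genes or 6%, beside 1.79% of all probe sets for looser calls of higher signal. On 9 genes (18%) every superovulated array exceeded every synchronized array, against 5.42% of all probe sets, and on 6 genes (12%) every superovulated array was lower, against 7.89%. With each array centred on its bright probe sets, which lowers every difference by 0.69, 2 genes in place of 9 were higher without overlap. The share of all probe sets under this centring is not given here. The 9 genes were RAB18, RAB11A, RAB4A, RAB1A, RAB2A, RAB8A, RAB11B, SAR1A and RAB34. The 6 lower genes, ARL3, ARL6, RAB28, RAB29, RAB35 and ARF5, differed by -0.18 at most. The median difference over the 50 genes was -0.01, next to the -0.02 over all probe sets. Of the 50 genes 38 differed by less than 0.3 in either direction, against 20984 of all 24016 probe sets, a larger share. The counts changed with the arrays used. No gene was called without superovulated array 1, 2 or 3 or without synchronized array 3, RAB11A was called in place of RAB18 without synchronized array 1, and RAB18 and RAB6A were called without synchronized array 2. Looser calls numbered 1 without superovulated array 1 or synchronized array 3 and 5 without synchronized array 2.

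Most of these probe sets lay at background. In 37 of the 50 genes no array exceeded 4, and only RAB8A and RAB11A did so on all 6 arrays. The bright genes were 7 (14%, against 5.85% of all probe sets): RAB11A, ARF4, RAB1A, RAB8A, RAB6A, RAB11B and RAB2A. The 14% refers to the probe set with the highest mean of each gene, and the 5.85% to every probe set. A gene can pass this mean through the group where it is high, so the following describes these 7 and supports nothing about the family. Their median difference was 0.80, against 0.59 over all bright probe sets, and 5 of the 7 had no overlap between groups, where 42.5% of bright probe sets were higher without overlap. Below, values are given in the order of the array numbers, first superovulated and then synchronized. The mean of the 7 was 5.50, 5.78 and 6.13, then 4.13, 5.84 and 4.94, so synchronized array 2 lay within the superovulated range.

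**Figure D1:**
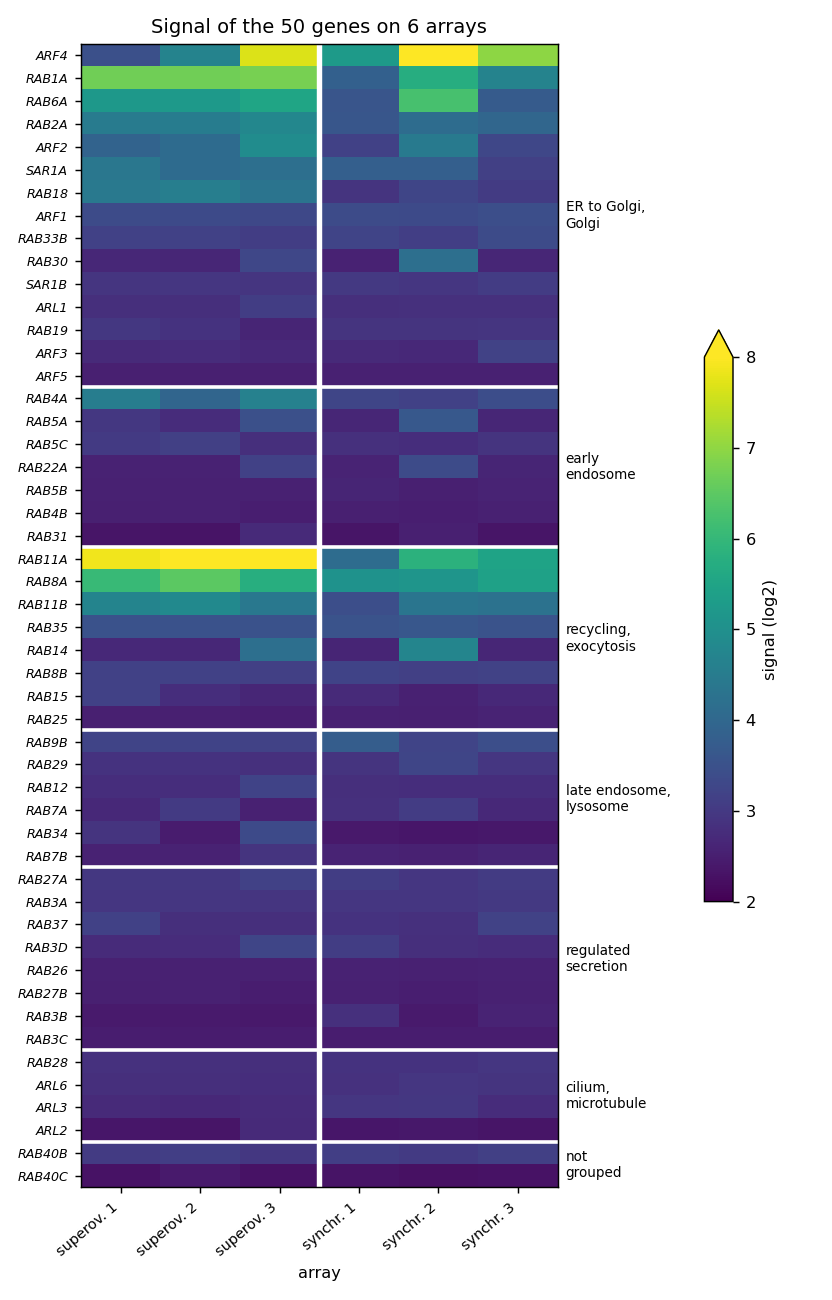
Signal (log2, colour, clipped at 8) of the 50 genes on 6 arrays, with genes in rows grouped by role and ordered by mean within a role, and superovulated arrays left of the white bar. Few rows leave the dark background colours, and those that do are mostly in the ER to Golgi and the recycling groups.

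The ER to Golgi and Golgi group held 15 genes, of which 1 rose, 0 fell and 4 (26.7%) were higher without overlap, where 0.695% and 5.42% of all probe sets were called higher and higher without overlap. Of the 15 genes 4 are bright, and 42.5% of bright probe sets were higher without overlap. RAB18, a GTPase of the endoplasmic reticulum and of lipid droplets, read 4.43, 4.56 and 4.32 in the superovulated group and 2.90, 3.26 and 3.05 in the synchronized group. The arrays within each group lay close together and the groups stood apart. RAB18 rose from 3.07 ± 0.18 to 4.44 ± 0.12, a difference of 1.37 (95% interval 1.07 to 1.66, 2.58-fold, adjusted p = 0.0284 by limma). The synchronized mean was near background, where GCRMA compresses values, which leaves the fold uncertain. The call was lost without any 1 of superovulated arrays 1, 2 and 3 and synchronized arrays 1 and 3 (adjusted p from 0.0595 to 0.108) and kept without synchronized array 2 (adjusted p = 0.0391), and it was lost after a second quantile normalization (adjusted p = 0.12) and with superovulated array 3 and synchronized array 2 both left out (difference 1.52, adjusted p = 0.141). Centring each array on its bright probe sets, which lowers the median difference of all probe sets by 0.69, brought RAB18 to 0.67 (adjusted p = 0.0994). Against synchronized array 2 alone, the brightest of its group, the superovulated mean of RAB18 was higher by 1.18.

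RAB1A, which controls transport from the endoplasmic reticulum to the Golgi, read 6.70, 6.71 and 6.78 in superovulated and 3.85, 5.74 and 4.69 in synchronized blastocysts. The superovulated values were nearly equal, whereas the synchronized values were spread out below them. The difference was 1.97 (95% interval 0.70 to 3.24, 3.92-fold), and it did not pass (adjusted p = 0.351). It passed when only the 1406 bright probe sets were tested (adjusted p = 0.0292), a setting in which 441 of them passed, 413 of those higher. The RAB1A difference was 0.99 against synchronized array 2 alone and 1.28 with centring on bright probe sets.

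RAB2A, which acts on the early secretory pathway and also at lysosomes, read 4.50, 4.52 and 4.78 on the superovulated and 3.60, 4.13 and 3.98 on the synchronized arrays. The groups did not overlap, but the gap between the nearest arrays was small. Its difference was 0.70 (95% interval 0.27 to 1.12, adjusted p = 0.298), too small for the looser threshold. SAR1A, 1 of the SAR1 GTPases that recruit the COPII coat, read 4.38, 4.09 and 4.20 against 3.81, 3.81 and 3.13. Its difference of 0.64 did not pass (adjusted p = 0.636). With centring on bright probe sets RAB2A went to 0.0047 and SAR1A to -0.05. SAR1B stayed between 2.92 and 3.06 on all arrays and gave no usable signal.

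RAB6A, which acts in transport at the Golgi and from it back to the endoplasmic reticulum, read 5.21, 5.22 and 5.52 in the superovulated group against 3.58, 6.26 and 3.72 in the synchronized group. Synchronized array 2 was the highest of the 6, and the other two synchronized arrays were the lowest. The difference over all arrays was 0.80 (95% interval -1.23 to 2.83, adjusted p = 0.639). Without synchronized array 2 it was 1.67 and passed (adjusted p = 0.0479), and against that array alone it was -0.94. The sign of the RAB6A difference thus depended on which synchronized array served as the reference.

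ARF4, an ARF of the Golgi and of transport to the cilium, showed the widest spread of the 50 genes. It read 3.46, 4.69 and 7.68 in the superovulated and 5.27, 9.44 and 6.98 in the synchronized group. Arrays of both groups were interleaved. The difference of -1.95 had a 95% interval from -5.98 to 2.08 and did not pass (adjusted p = 0.636). The group SDs of ARF4, 2.17 and 2.10, were as large as its difference, which was -0.85 without synchronized array 2 and -3.16 without superovulated array 3.

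ARF2 read 3.91, 4.10 and 4.92 against 3.17, 4.44 and 3.28, a difference of 0.68 (adjusted p = 0.636) that turned to -0.01 with centring on bright probe sets. ARF1, the ARF that recruits the COPI coat, stayed between 3.31 and 3.43 on all arrays, and its other 2 probe sets differed by -0.01 and 0.02. ARF3 and ARF5, both Golgi ARFs, lay between 2.53 and 3.18. RAB30 read 2.67, 2.64 and 3.27 against 2.57, 4.20 and 2.64, a difference of -0.28 (adjusted p = 0.758) whose sign turned without synchronized array 2 (0.26). The other genes of this group, RAB33B, RAB19 and the Golgi GTPase gene ARL1, read 2.61 to 3.37.

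**Figure D2:**
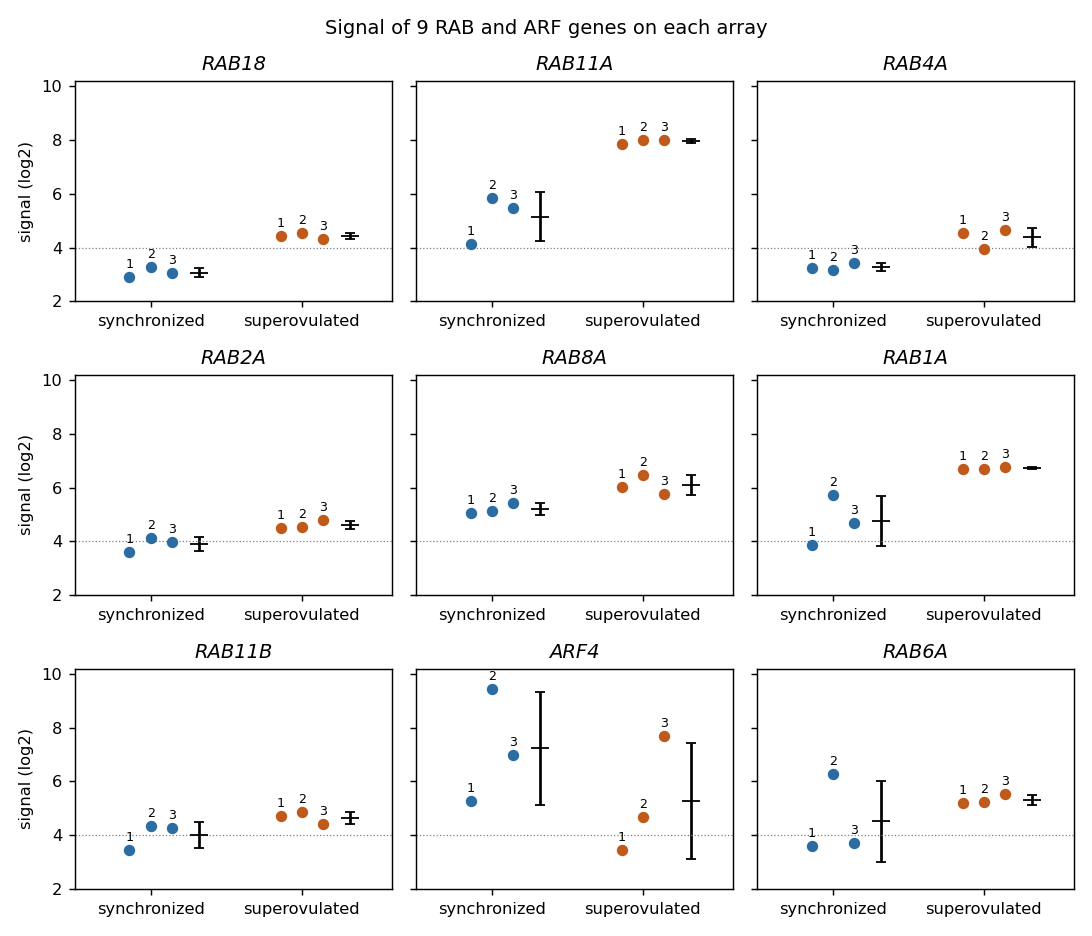
Signal (log2) of 9 RAB and ARF genes on each synchronized (blue) and superovulated (orange) array, with array numbers above the points, bars for mean ± SD (n = 3) and a dotted line at 4. RAB18, RAB11A, RAB4A, RAB2A, RAB8A, RAB1A and RAB11B have no overlap between groups, while ARF4 and RAB6A overlap.

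In the group of recycling and polarized exocytosis, 0 of 8 genes passed the test and 3 (37.5%) were higher without overlap, RAB11A, RAB8A and RAB11B. All 3 are bright, and the share is 5.42% over all and 42.5% over bright probe sets. RAB11A, the GTPase of recycling endosomes, had the largest difference of the 50 genes. It read 7.87, 8.0 and 8.02 in superovulated blastocysts and 4.12, 5.85 and 5.48 in synchronized ones. Its group values were 7.96 ± 0.08 and 5.15 ± 0.91, so the spread lay almost wholly in the synchronized group. The difference was 2.81 (95% interval 1.59 to 4.04, 7.03-fold, adjusted p = 0.125) and met the looser threshold only. It passed without synchronized array 1 (difference 2.30, adjusted p = 0.0389) and among bright probe sets tested by themselves (adjusted p = 0.00864). In that last setting 441 of 1406 probe sets passed, 413 of them higher. Of 15 alternatives run on RAB11A 4 gave a call, and with 1 array left out its adjusted p reached 0.402. Against each synchronized array alone the superovulated mean of RAB11A was higher by 3.84, 2.11 and 2.48.

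RAB11B, the close paralogue of RAB11A, read 4.71, 4.85 and 4.41 against 3.45, 4.33 and 4.26. The nearest arrays of the groups were almost level, and the difference of 0.64 (95% interval -0.08 to 1.36, adjusted p = 0.636) turned to -0.05 with centring on bright probe sets. RAB8A, which directs vesicles to the apical membrane and the cilium, read 6.04, 6.48 and 5.75 against 5.05, 5.12 and 5.44. Its difference was 0.89 (95% interval 0.32 to 1.45, adjusted p = 0.341). It was 0.05 after a second quantile normalization and 0.19 with centring on bright probe sets, and the second RAB8A probe set, at 3.13 to 3.44 on all arrays, differed by 0.08.

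RAB14, which acts between the trans-Golgi and endosomes, read 2.68, 2.67 and 4.19 against 2.63, 4.72 and 2.64. It was thus above background on 1 array of each group, and the difference was -0.15 (adjusted p = 0.907). RAB35, a GTPase of fast recycling, read 3.52 on each superovulated array, against 3.53, 3.62 and 3.53. RAB25, the epithelial relative of RAB11, lay between 2.5 and 2.59 on all arrays. RAB8B and RAB15 read 2.56 to 3.21 and did not pass.

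Of the 7 early endosome genes, 0 passed and RAB4A was higher without overlap (14.3%, against 5.42% of all probe sets). RAB4A, a GTPase of fast recycling from early endosomes, read 4.54, 3.96 and 4.64 on the superovulated and 3.25, 3.16 and 3.42 on the synchronized arrays. The synchronized values were close together and near background, and all superovulated values lay above them. Its difference was 1.10 (95% interval 0.58 to 1.63, 2.15-fold, adjusted p = 0.156), which met the looser threshold only, and centring on bright probe sets brought it to 0.41. Unlike RAB11A and RAB1A, RAB4A differed by similar amounts from each synchronized array, by 1.13, 1.22 and 0.96.

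RAB4B, the paralogue of RAB4A, stayed between 2.51 and 2.55. RAB5A, the main organizer of early endosome fusion, read 2.98, 2.77 and 3.46 against 2.65, 3.66 and 2.64, a difference of 0.09 (adjusted p = 0.886). RAB5B and RAB5C lay between 2.53 and 3.14. RAB22A and RAB31, relatives of RAB5, read 2.32 to 3.36.

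The late endosome and lysosome group had 0 of 6 genes called and no bright gene, where 0.716% of all probe sets were called and 5.85% were bright. RAB7A, the central GTPase of late endosomes, read 2.69, 3.03 and 2.55 against 2.83, 3.07 and 2.70, and its other probe set 2.75 to 2.86. The RAB7A probe sets therefore say nothing about the level of this transcript. RAB34 read 2.91, 2.45 and 3.34 against 2.41, 2.37 and 2.39, a difference of 0.51 near background (adjusted p = 0.636) that turned to -0.18 with centring on bright probe sets. RAB9B read 3.22, 3.21 and 3.18 against 3.76, 3.22 and 3.45, a difference of -0.27 (adjusted p = 0.636). RAB29, RAB12 and RAB7B stayed at or below 3.26.

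Regulated secretion had 8 genes, RAB3A, RAB3B, RAB3C, RAB3D, RAB26, RAB27A, RAB27B and RAB37, which serve stored secretory granules in neurons, glands and blood cells. Every value of these genes lay between 2.42 and 3.25, and 0 passed, where 0.716% of all probe sets passed. RAB3B, at 2.43, 2.43 and 2.42 against 2.83, 2.43 and 2.59, had the most negative difference of them, -0.19 (adjusted p = 0.636). The cilium and microtubule genes ARL2, ARL3, ARL6 and RAB28 lay between 2.35 and 2.97, and 0 of 4 passed. ARL3, ARL6 and RAB28 were lower without overlap in the superovulated group, by 0.07 for RAB28, 0.10 for ARL6 and 0.18 for ARL3, on probe sets at background. That is 75% of these 4 genes, against 7.89% of all probe sets. RAB40B and RAB40C, linked to ubiquitin ligases, read 2.28 to 3.13.

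**Figure D3:**
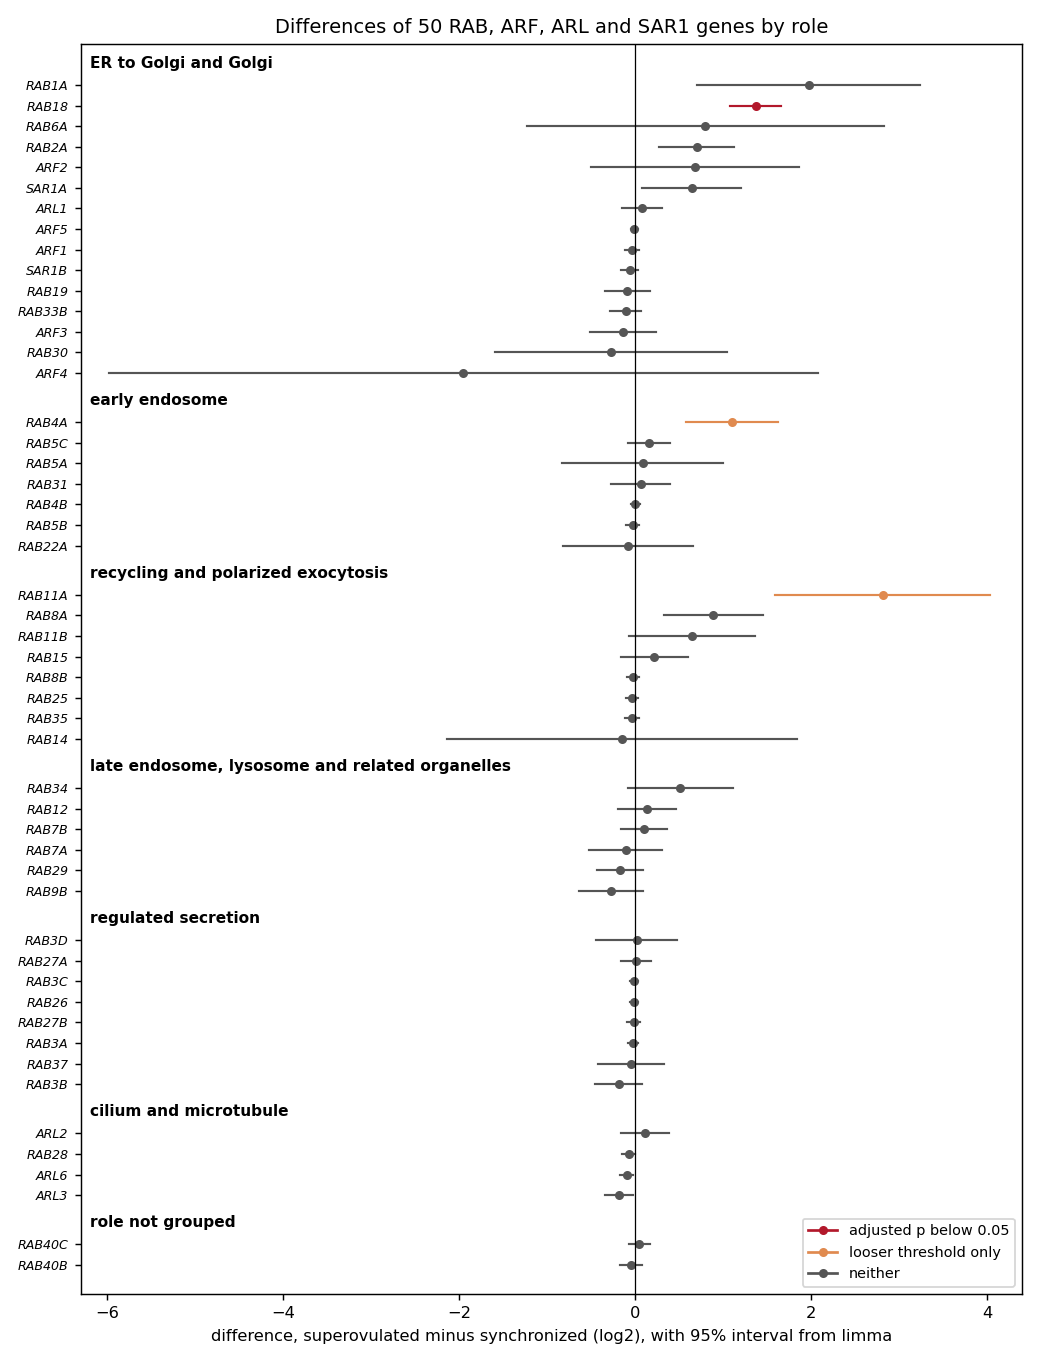
Difference (superovulated minus synchronized, log2) with its 95% interval from limma for the 50 genes, grouped by role, with the called gene in red and looser calls in orange. RAB18 (1.37) has a narrow interval, whereas the intervals of RAB11A (2.81) and RAB1A (1.97) are wider and that of ARF4 (-1.95) spans 0.

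The spread within groups was uneven. In 5 of the 7 bright genes the synchronized SD exceeded the superovulated SD, as it did in 77.4% of all bright probe sets. Synchronized array 1 was the lowest of its group in all 7 bright genes (64.2% of bright probe sets) and synchronized array 2 the highest in 6 of 7, RAB8A being the exception (59.6% of bright probe sets). These arrays also had the fewest and the most probe sets above 4 in their group. Each of these positions was thus also found in most bright probe sets at large, though not in all.

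A separate pattern cut across the groups. On 5 genes, ARF4, ARF2, RAB14, RAB30 and RAB22A, superovulated array 3 exceeded the other superovulated arrays by at least 0.5 and synchronized array 2 exceeded the other synchronized arrays by at least 0.5. That is 10% of the genes, against 3.25% of all probe sets and 21.6% of bright ones. The limit was set after the values were seen. RAB22A lay just inside it, with a gap of 0.58 on superovulated array 3, and RAB5A just outside, with 0.48. In ARF4 the gaps were 2.99 and 2.46, in RAB14 1.51 and 2.08.

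Some markers of several cell types were high on the same arrays, and the array pattern of the list means below rests largely on those few genes. The mean of the 13 measured cumulus and granulosa markers was 3.08, 3.01 and 3.62, then 3.33, 3.97 and 3.35. Of these 13 markers 4, TNFAIP6, INHA, PTX3 and FST, met the limit used above, and TNFAIP6 and INHA were bright. FSHR and AMH, which define granulosa cells, stayed between 2.36 and 2.75 on all arrays. The 10 oviduct and uterus markers averaged 2.99, 3.18 and 3.43, then 3.0, 3.36 and 3.19. Of these 10 the limit was met by MSX1, which read 3.80, 5.50 and 8.48, then 5.80, 10.38 and 7.78 and so ranked the arrays of each group as ARF4 did, while the oviductal gene OVGP1 stayed between 2.19 and 2.26. C3 followed the groups instead, at 5.29, 5.95 and 5.44, then 2.78, 2.84 and 3.38 (difference 2.56, adjusted p = 0.0373 by limma). It was the only 1 of the 10 called, where 0.716% of all probe sets were called. Of the 10 markers 7 had a difference below 0, as had 17256 of all 24016 probe sets. The 8 primitive endoderm markers averaged 3.91, 3.94 and 4.14, then 3.24, 3.63 and 3.52, and PDGFRA and COL4A1 met the limit. Of the 12 trophectoderm and epithelium markers ATP1B1 met it, and of the 3 inner cell mass and 10 blood and immune markers 0 did. The part of any of these cells in the pattern was not tested.

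**Figure D4:**
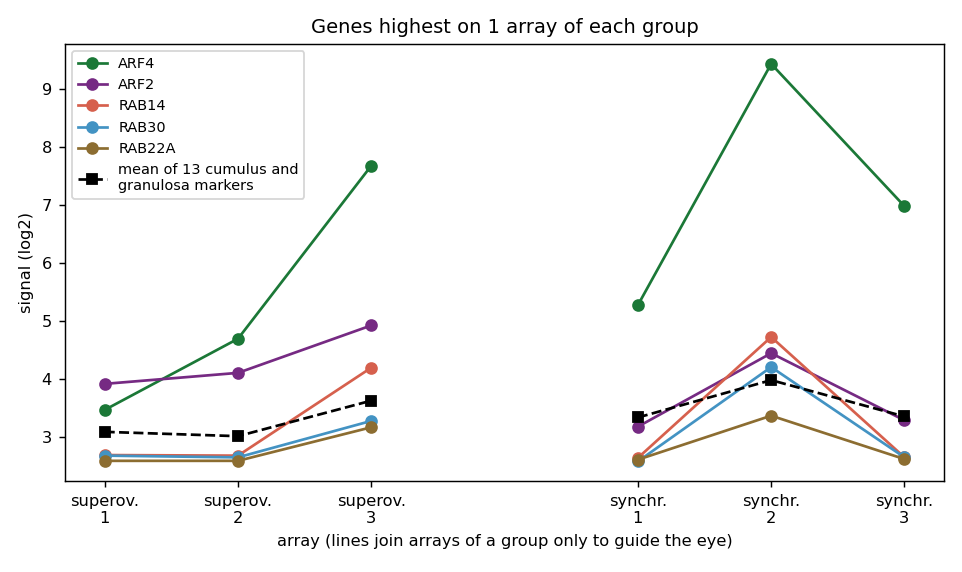
Signal (log2) of the 5 genes with a high array in each group, and the mean of 13 cumulus and granulosa markers (dashed), on each array. All lines peak on superovulated array 3 and on synchronized array 2, with ARF4 reaching 7.68 and 9.44. The peaks of the dashed mean rest largely on 4 of the 13 markers, TNFAIP6, INHA, PTX3 and FST.

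The same gene was read by more than 1 probe set in 12 of the 50 genes. The 13 further probe sets lay between 2.25 and 3.47, none exceeded 4 on any array, and none was called (smallest adjusted p = 0.636). Among the genes with high signal only RAB8A and RAB6A had such a second probe set, and in both it stayed at background, with a difference of -0.04 for RAB6A. The bright probe sets of these 2 genes are of the Affymetrix type that is shared by several transcripts of a gene. RAB18, RAB11A, RAB4A, RAB1A and RAB2A rest on 1 probe set each, and whether their probes also bind paralogues such as RAB1B was not analysed here.

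Among the regulators and partners of these GTPases no gene was called. Of 203 listed genes 112 were measured, and in limma 0 passed, where 0.716% of all probe sets passed. At an unadjusted p below 0.05 were 6 of the 112, of which 4 were higher and 2 lower. Their median difference was -0.03, and 4 of the 112 (3.57%) were higher without overlap, against 5.42% of all probe sets, and 8 (7.14%) were lower, against 7.89%. The inhibitor gene GDI2, which extracts RAB proteins from membranes, read 4.13, 4.39 and 5.02 against 2.90, 4.81 and 3.67, a difference of 0.72 that did not pass (adjusted p = 0.636).

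GOLGA4, a golgin tethered to the trans-Golgi by ARL1, was the only regulator of the 112 past the looser threshold. Of all probe sets 1.79% had a looser call of higher signal. It read 7.23, 7.31 and 7.13 on the superovulated and 3.76, 3.70 and 5.0 on the synchronized arrays. The difference was 3.07 (95% interval 2.08 to 4.06, adjusted p = 0.0589), and it passed without synchronized array 3 (difference 3.49, adjusted p = 0.00984). A second GOLGA4 probe set stayed between 3.41 and 3.73 and differed by 0.07. PREB, the exchange factor that loads SAR1 with GTP, read 3.71, 3.64 and 3.65 against 3.17, 3.12 and 2.79, with a difference of 0.64 near background (adjusted p = 0.13). Of the RAB exchange factors 22 were measured, of the RAB GTPase-activating proteins 19, of the RAB effectors 27 and of the ARF GTPase-activating proteins 15, and none of these classes had a looser call.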

How the data were processed

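Each array held 1 labelled blastocyst sample (3 superovulated, 3 synchronized). The deposited values are log2 expression values per probe set, made by the authors with GCRMA per the submitters' processing notes (version not stated). RNA was amplified before labelling, per the labels' protocols. The sources used here do not say whether normalization was joint. The 112 Affymetrix control probe sets were left out of the test. Symbols came from GEO's platform annotation.

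The group test was limma 3.58.1, run in R 4.3.3 (lmFit, eBayes without trend, two-sided, Benjamini-Hochberg adjustment over 24016 probe sets). The procedure was tested on simulated data. Simulated arrays were independent with equal spread in both groups, unlike the arrays here, so that test does not cover uneven or shared spread. Genes given array by array were those called, past the looser threshold, with a mean above 4, or with the 3 most negative and 3 most positive remaining differences; the others are given by role, and further genes were chosen after their values were seen. Alternatives were median, quantile and bright-probe-set scaling, bright probe sets alone, an intensity trend, a replicate block, averaged probe sets and leaving out each array; 2 more were added after seeing the data. Members and lists were chosen with earlier results of these data known. The small number of arrays limits the precision.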

Additional observations from a re-analysis of the deposited data

How the results depend on the processing

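RAB18 kept its direction in all 13 alternatives run on it and its call in 4. The count of called genes was 1, and 0 after quantile normalization, 0 with a replicate block, 0 without both superovulated array 3 and synchronized array 2, 2 among bright probe sets alone, 2 with bright centring among those, and 3 with bright centring over all probe sets. Leaving out each array in turn gave 0 to 2 called genes, 1 to 5 looser calls, 9 to 13 genes higher without overlap and 0 to 1 called regulators. Genes higher without overlap numbered 2 after bright centring and 15 without both arrays, where fewer arrays can overlap. The median over the 50 genes was -0.71 after bright centring, which moves every probe set. Called regulators numbered 3 after bright centring, 1 among bright probe sets and 1 with both settings. Over all probe sets, calls numbered 172, 28 after quantile normalization, 529 after bright centring (of which 211 were higher, against 167 of the 172), 441 among bright probe sets, 229 with both, 50 with an intensity trend, 0 with a replicate block, 26 to 137 without 1 array and 1 without both arrays.

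After bright centring the fit gave all probe sets 1 common spread, so the call of ARF4 there (-2.65, adjusted p = 3.1e-09) ignores its own wide spread; among bright probe sets, where spreads were estimated, it gave adjusted p = 0.101. Bright centring lowers every difference by 0.69, so it turned by construction the sign of the 15 genes with a difference between 0 and 0.69, among them ARF2 (-0.012), RAB11B (-0.049, also among bright probe sets), RAB34 (-0.18) and SAR1A (-0.052). RAB30 ranged from -0.56 to 0.26 with 1 array left out, above 0 without synchronized array 2, and was 0.05 without both arrays. RAB18 has a mean below 4 and no value among bright probe sets. With the replicate number as a block, RAB18 gave adjusted p = 0.114. Deviations from the group means correlated at 0.54, -0.40 and -0.41 for arrays 1, 2 and 3 of the same number, and at 0.69 between superovulated array 3 and synchronized array 2. Deviations of a group sum to 0, so these values are tied to each other. They cannot show whether arrays of the same number were handled together.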
